A study of Mus musculus with 27 samples.

Results

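The comparison described here sets the 3 arrays labelled neuron against the 3 arrays labelled microglia, 6 of the 27 arrays of a mouse study that set microglia grown from embryonic stem cells beside primary cells. Members were chosen by sample title alone, and each difference is the neuron mean minus the microglia mean. Per the labels both groups were C57BL/6 mouse brain cells, and the labels name no allele, agent or transgene for either. Neurons were taken at embryonic day 15 to 16, and the cells labelled microglia carry the age day 3, so age and cell type cannot be told apart. The labels do not give a brain region, a purification step, a time in culture or the sex of the animals, although the series title speaks of cultured primary microglia. The arrays labelled microglia did not detect Tmem119, P2ry12, Cx3cr1, Xist or Eif2s3y and held RNA of Rhox5 and Hoxc6, as the groups grown from embryonic stem cells on the same chips also did for these last genes. They are therefore called by their label, and whether they hold primary microglia was not tested. Other groups of the study are cited in places. Their labels give day 7 for MF and BM-DC, 6 to 8 weeks for the CD8 T cells and culture over 51 days for ESdM 20 and ESdM 22. RNA was measured on Illumina bead arrays, in which a fluorescent label on bead-bound probes reports the abundance of each transcript.

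Neurons are postmitotic cells that carry signals along axons built on microtubules and neurofilaments and pass them on at synapses, where calcium entry releases vesicles of transmitter. Microglia are the macrophages of the brain. They descend from the blood-forming lineage, engulf debris, digest it in lysosomes, and read microbial products and interferons through dedicated receptors. Much of the neuronal programme is held silent in other cells by the repressor REST, and much of the myeloid programme depends on the transcription factor PU.1.

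A level is the log2 normalized intensity of 1 probe per gene, the brightest on average, and undetected genes lay near 4.31 on the neuron arrays and 4.32 on the microglia arrays. Levels of different probes are not set against each other. A gene was called when the limma fit over all 27 arrays gave a Benjamini-Hochberg adjusted p under 0.05 together with a change of 2-fold or more (1 on the log2 scale). Where the gene was detected on no array of the lower group, the fold is given as "at least", after raising each of those arrays to its lowest detected value. Median raw intensity was 101 to 112 on the neuron arrays and 93.2 to 95.6 on the microglia arrays, and 15431 to 16806 and 15424 to 15903 probes were detected. The neuron arrays differed from each other by a root mean square of 0.342 to 0.439 log2 units, the microglia arrays by 0.183 to 0.209, and arrays of different groups by 1.87 to 1.92. The neuron arrays shared 1 chip with the 3 astrocyte arrays (day 3, C57BL/6 brain), while the microglia arrays lay on 2 other chips, so chip and cell type cannot be told apart. Astrocyte levels from the neurons' own chip are therefore given beside several results. The number of arrays limits the precision, and the replicates are not stated to be separate cultures or animals.

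Of 12814 genes tested, 5192 were called (40.5%). Neurons were higher for 2570 (20.1%) and lower for 2622 (20.5%), and the median difference over all genes was -0.02. The arrays of the groups did not overlap for 8737 genes (68.2%), and for 5184 of the 5192 called genes. These are the background for every such statement below, which adds little to the call of a gene. Differences of 8-fold or more made up 809 of the higher and 571 of the lower calls. A set of 1100 higher genes was detected on all 3 neuron arrays and on no microglia array, and 739 of these were also detected on all 3 astrocyte arrays and 231 on none. In the other direction, 624 genes were detected on all microglia arrays and on no neuron array, of which 354 were detected on all astrocyte arrays and 150 on none. Without background correction 3332 genes were called, and with the deposited normalized values 3299.

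**Figure D1:**
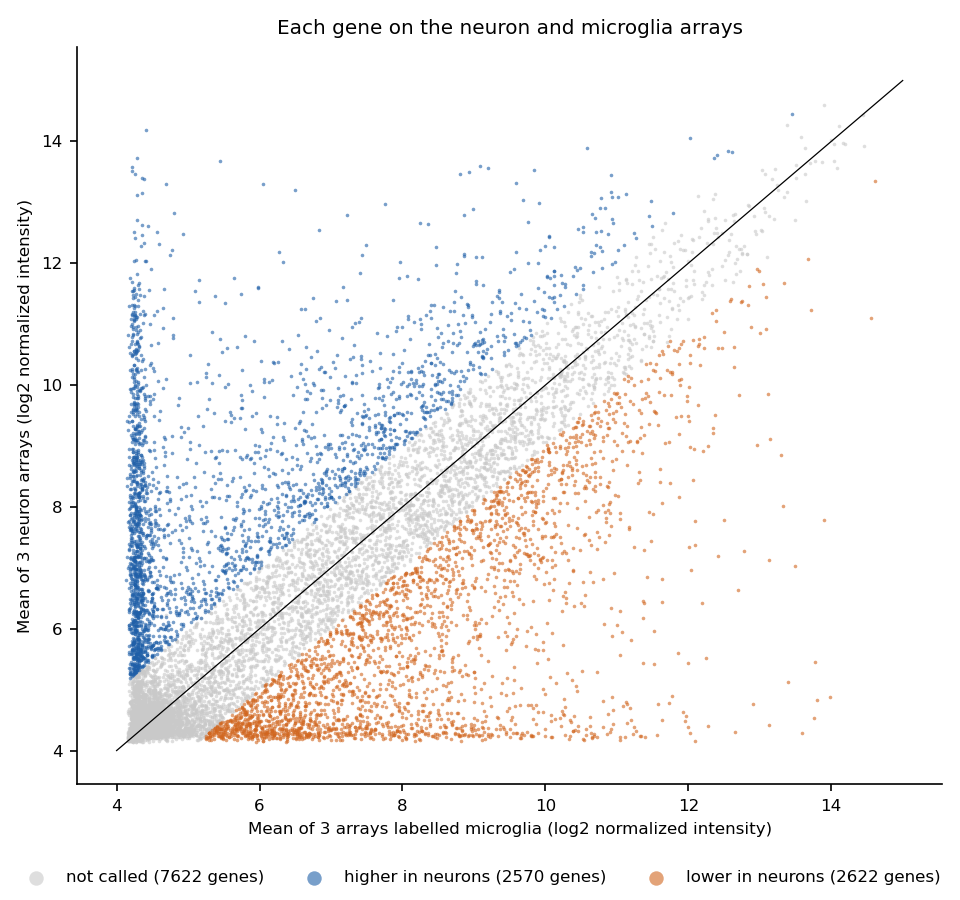
Each point is 1 of 12814 genes, with its mean over the 3 microglia arrays on the horizontal axis and over the 3 neuron arrays on the vertical axis, both as log2 normalized intensity, and the line marks equal levels. The 2570 genes called higher in neurons lie above the line and the 2622 called lower lie below it, and the columns of points near 4.3 are genes not detected in 1 of the groups.

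Nrep, Rtn1 and the kinesins Kif1a and Kif5c were among the largest rises. Nrep, which encodes the neuronal protein P311, had levels of 14.35, 14.07 and 14.13 on the neuron arrays and 4.20, 4.35 and 4.67 on the microglia arrays. It was higher in neurons 876-fold (adjusted p = 2.51e-26), a fold that rests on microglia levels near the background, since only 1 microglia array detected it. Rtn1, an endoplasmic reticulum protein of neurons and neuroendocrine cells, was 393-fold higher, at 13.29, 13.53 and 13.11 on the neuron arrays and 4.59, 4.51 and 4.98 on the microglia arrays, and was likewise detected on 1 microglia array. The kinesin motors Kif1a and Kif5c, which carry vesicles along axons, differed by 8.22 ± 0.17 and 7.37 ± 0.17 on the log2 scale (SE of the fit). Cdk5r1, the p35 activator of the kinase Cdk5, was at 13.28, 13.26 and 13.37 on the neuron arrays and 6.13, 5.71 and 6.29 on the microglia arrays, and was detected on every array. The remaining genes of the 10 largest rises were Mpped1, Camk2b, the splicing factor Rbfox1, the protein kinase A inhibitor Pkia and Samd14, with differences of 8.03, 7.94, 7.72, 7.55 and 7.45. Camk2b and Rbfox1 were detected on 1 microglia array, and Mpped1, Pkia, Samd14 and Kif5c on 2. Several of these genes were also high on the astrocyte arrays of the same chip, with means of 12.73 for Kif1a, 12.20 for Rtn1 and 11.6 for Pkia. Means there were 9.68 for Nrep, 8.94 for Samd14, 8.81 for Kif5c, 7.18 for Cdk5r1 and 6.55 for Camk2b. Rbfox1 and Mpped1 lay near the background there, at 4.56 and 4.53. In all 10 the lowest neuron array lay above the highest microglia array, which was a condition of their choice.

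Among genes that no microglia array detected, Sox11 had the largest lower bound. This transcription factor of immature neurons was at 13.81, 13.55 and 13.85 on the neuron arrays and 4.24, 4.25 and 4.36 on the microglia arrays, which is at least 547-fold higher (adjusted p = 2.12e-26). Mapt, which encodes the microtubule-binding protein tau, was at 13.55, 13.39 and 13.79 on the neuron arrays and at least 491-fold higher. Stmn2, a regulator of microtubule growth in axons, was at least 427-fold higher, and Syt4, a synaptotagmin of vesicle membranes, was at least 356-fold higher. The other bounds among the 10 largest were at least 470.0-fold for Fxyd6, a modulator of the sodium pump, at least 452-fold for Snurf, at least 433-fold for Rtl8a, at least 366-fold for Nme7, at least 267-fold for Soga3 and at least 253-fold for Crip2. Of 7 other Nme7 probes, 2 were called the same way and 1 the opposite way. The 10 genes were not alike on the astrocyte arrays of the same chip, where Syt4 was at 4.43, Sox11 at 6.88, Stmn2 at 10.58 and Rtl8a at 13.12.

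Ctsk, Lgals3, Lyz1 and Rhox5 were among the largest falls. Ctsk, which encodes the collagen-digesting protease cathepsin K, had levels of 4.73, 4.46 and 4.41 on the neuron arrays and 13.68, 13.91 and 13.68 on the microglia arrays, 598-fold lower in neurons (adjusted p = 7.74e-27), a fold that rests on neuron levels near the background, since only 1 neuron array detected it. It was also low on the astrocyte arrays, at 4.82. Lgals3, the galactoside-binding lectin galectin-3, was 549.9-fold lower, and Lyz1, a lysozyme, 501-fold lower. The homeobox gene Rhox5, known for expression in the reproductive tract, was at 4.25, 4.31 and 4.71 on the neuron arrays and 13.22, 13.09 and 13.06 on the microglia arrays, a level seen on every microglia array. Gpnmb, Laptm5, Dab2, Flt1, Adssl1 and Cyba completed the 10 largest falls measured in both groups, with differences of -8.31, -8.27, -8.14, -7.46, -7.41 and -7.29. Rhox5, Flt1 and Adssl1 were detected on 1 neuron array, Lgals3, Lyz1, Dab2 and Cyba on 2, and Gpnmb and Laptm5 on all 3. Means on the astrocyte arrays of the neurons' chip were 14.19 for Lyz1, 12.8 for Laptm5, 12.41 for Lgals3, 11.72 for Gpnmb and 10.30 for Dab2. They were 9.43 for Cyba, 8.21 for Adssl1, 6.13 for Flt1 and 4.42 for Rhox5, so the low Ctsk level there was not typical. Among genes that no neuron array detected, the interferon-induced GTPase Gbp2 led at 4.34, 4.26 and 4.26 on the neuron arrays and 13.49, 13.71 and 13.55 on the microglia arrays, at least 509.6-fold lower in neurons. It was followed by Fcer1g, the shared signalling chain of Fc receptors, at at least 268-fold, Tnfaip2 at at least 205-fold and the macrophage lysozyme Lyz2 at at least 181-fold. The astrocyte arrays held Lyz2 at 12.10, Fcer1g at 11.1, Gbp2 at 7.91 and Tnfaip2 at 5.85. Bounds for Slpi, Alox5ap, Ccl4, Mrc1, Hk3 and Serpina3f ran from at least 173-fold down to at least 106-fold.

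**Figure D2:**
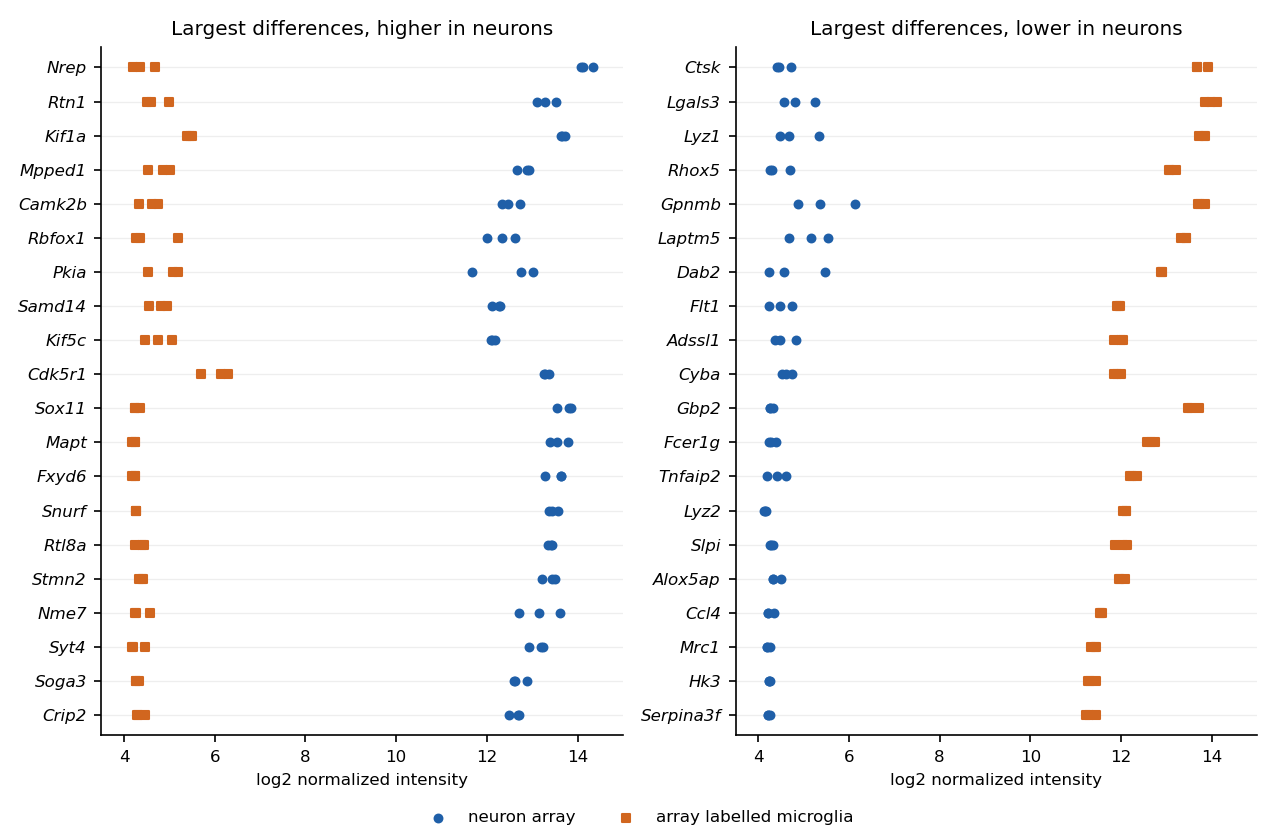
Levels of the 20 genes with the largest rises and the 20 with the largest falls, as log2 normalized intensity on the horizontal axis, with circles for the 3 neuron arrays and squares for the 3 arrays labelled microglia. In each panel the first 10 genes were detected in both groups and were chosen among genes whose arrays do not overlap. The last 10 were detected in the higher group alone.

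The gene lists that follow are described by counts read beside the shares of 20.1% higher and 20.5% lower among all genes tested. In the RNA of a whole culture, fewer cells of a type and less RNA per cell cannot be told apart. The neuronal cytoskeleton and growth cone list had the largest share of rises. Of its 30 tested members, 27 were higher and none lower, with a median difference of 5.65, or 5.30 with undetected genes at their bounds. Besides Mapt, Stmn2 and Kif1a, the dendritic microtubule protein Map2 was at 12.31, 12.23 and 11.59 on the neuron arrays and 4.34, 4.54 and 4.30 on the microglia arrays, at least 169-fold higher. Map1a, Map6 and Basp1 were not called. Probes for the tubulins Tubb3 and Tubb2a and for the neurofilament subunit Nefl did not pass the detection filter, so these markers could not be tested. On the astrocyte arrays of the same chip, 22 of the 27 higher genes were detected on all 3 arrays, and the summed normalized intensity of the list was 25281 to 30050 there against 101880 to 103620 on the neuron arrays and 2752 to 3189 on the microglia arrays. The astrocyte arrays therefore held RNA of this list as well.

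Synaptic vesicle and release genes were higher for 22 of 32 and lower for 1. Syt4 led, followed by Cplx1, the complexin that clamps vesicle fusion, at 12.08, 11.89 and 11.76 on the neuron arrays and 4.45, 4.44 and 4.57 on the microglia arrays. Syt1, the calcium sensor of release, was at 11.32, 11.59 and 11.03 on the neuron arrays and 4.25, 4.22 and 4.25 on the microglia arrays, at least 102-fold higher, and the vesicle protein Syp was 78.0-fold higher. All 3 neuron arrays were high for these genes and the microglia arrays lay at or just above the level of undetected probes. Syngr1, a synaptogyrin of vesicle membranes, went the other way at 4.31, 4.32 and 4.48 on the neuron arrays and 8.34, 8.26 and 8.39 on the microglia arrays. Of 3 other Syngr1 probes, 1 was called the same way and 1 the opposite way. Snap25 did not pass the filter.

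Glutamate and GABA receptor and scaffold genes were higher for 17 of 24 and lower for none. The AMPA receptor subunit Gria2, which makes these channels impermeable to calcium, was at 11.79, 11.34 and 11.63 on the neuron arrays and 4.73, 4.40 and 4.88 on the microglia arrays and 121-fold higher (adjusted p = 1.86e-23). Gria1, another AMPA receptor subunit, was at least 31.3-fold higher, the postsynaptic scaffold Dlg2 at least 23.4-fold and the presynaptic adhesion molecule Nrxn2 at least 16.4-fold. Nrxn2 spread over 9.51, 7.89 and 8.63 on the neuron arrays. Gria1 and Nrxn2 were detected on no microglia array.

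A motif of the REST type, searched as AGCACC, any 2 bases and GGACAG on both strands from 250 bases before to 50 after the transcription start, was found in 17 of 32851 RefSeq promoters (0.0517%). It was found in 9 of 2815 promoters of genes called higher in neurons and in none of 2723 of genes called lower. The 8 higher genes were Gria2, Gad2, Robo2, Ttc9b, Scamp5, Lca5, Osbp2 and Fbll1, of which Lca5 holds 2 of the promoters. These are named because they hold the match. Lca5 (0.60) and Osbp2 (0.42) were not called with the deposited normalized values, and Lca5 (0.48) and Robo2 (0.92) not with the mean of all probes. The promoters of Gria2 and of Gad2, a GABA-synthesising enzyme at 7.11, 7.77 and 7.45 on the neuron arrays and 4.27, 4.20 and 4.26 on the microglia arrays (chosen after its values were seen), are shown because they carry the motif upstream of genes of the receptor and release lists. Capitals mark the match, on the strand opposite to the gene for Gria2 (bases -170 to -157 from the start site) and on the gene's own strand for Gad2 (bases -163 to -150). Both are from RefSeq on GRCm38.p6, Gria2 from chr3:80802786-80803085 on the minus strand and Gad2 from chr2:22622077-22622376 on the plus strand. The match is a description of the letters, and Rest itself did not pass the detection filter.
Gria2: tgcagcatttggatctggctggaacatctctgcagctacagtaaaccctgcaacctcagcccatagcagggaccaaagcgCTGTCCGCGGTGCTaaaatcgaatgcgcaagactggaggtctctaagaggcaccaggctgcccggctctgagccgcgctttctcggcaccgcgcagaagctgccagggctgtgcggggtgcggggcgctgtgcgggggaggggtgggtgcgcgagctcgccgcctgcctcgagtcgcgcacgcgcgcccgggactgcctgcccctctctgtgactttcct
Gad2: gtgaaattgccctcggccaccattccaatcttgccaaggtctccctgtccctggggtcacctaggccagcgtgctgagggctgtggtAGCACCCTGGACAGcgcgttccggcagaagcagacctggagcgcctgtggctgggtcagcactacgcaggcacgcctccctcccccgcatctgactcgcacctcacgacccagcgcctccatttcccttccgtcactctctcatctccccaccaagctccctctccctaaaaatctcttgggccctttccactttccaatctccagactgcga

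Of 33 voltage-gated ion channel genes tested, 17 were higher and 3 lower. The fast potassium channel Kcnc1 was at 9.04, 9.41 and 9.41 on the neuron arrays and 4.21, 4.35 and 4.27 on the microglia arrays, and the calcium channel subunit Cacna2d1 at 10.30, 8.74 and 8.77 on the neuron arrays and 4.13, 4.18 and 4.16 on the microglia arrays. Both were high on all neuron arrays, although neuron array 1 exceeded the others for Cacna2d1. The bounds were at least 16.8-fold for the A-type potassium channel Kcnd2 and at least 10.8-fold for the potassium leak channel Kcnk1. The 3 lower genes were the potassium leak channel Kcnk13 (at least 21.2-fold lower), the proton channel Hvcn1 (at least 14.8-fold lower) and the potassium channel subunit Kcnab2 (3.41-fold lower). Kcnk13 was at 4.45, 4.35 and 4.47 on the neuron arrays and 8.81, 9.05 and 9.13 on the microglia arrays, and its astrocyte mean of 8.42 on the neurons' chip lay between the groups.

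Forebrain and neuronal transcription factors were higher for 26 of 34 and lower for none. After Sox11 came Myt1l, a zinc finger factor of postmitotic neurons, at 10.97, 12.05 and 11.90 on the neuron arrays and 4.27, 4.33 and 4.31 on the microglia arrays. Neurod2, which acts in excitatory cortical neurons, was at 11.09, 10.65 and 11.78 on the neuron arrays and at least 92.3-fold higher. Satb1, a chromatin organiser also found in T cells, was at least 91.5-fold higher, and at a mean of 8.34 on the astrocyte arrays. Myt1l and Neurod2 lay at the level of undetected probes on the astrocyte arrays, at 4.21 and 4.34. Of the members not called, Sox2 and Eomes mark progenitors in the developing cortex, Sox2 with levels of 4.55, 4.85 and 4.72 on the neuron arrays and 4.27, 4.31 and 4.36 on the microglia arrays and Eomes of 4.18, 4.25 and 4.27 on the neuron arrays and 4.24, 4.19 and 4.18 on the microglia arrays (both chosen after their values were seen).

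Axon guidance and neural adhesion genes were higher for 32 of 47 and lower for 1. The adhesion molecule Ncam1 was at 12.52, 11.81 and 11.80 on the neuron arrays and 4.25, 4.25 and 4.22 on the microglia arrays, at least 169-fold higher. The ephrin receptor Epha5 was at least 89.0-fold higher. Reelin, encoded by Reln and secreted by Cajal-Retzius cells and interneurons, spread from 10.21 to 11.72 on the neuron arrays and was at least 79.9-fold higher. Dab1, which relays the reelin signal inside neurons, was at least 60.8-fold higher. The semaphorin co-receptor Nrp2 was lower, at 4.75, 4.49 and 5.73 on the neuron arrays and 6.18, 6.22 and 6.51 on the microglia arrays, but was not called under 4 alternatives (-0.53 to -0.85). Neuropeptide and secretory granule genes were higher for 14 of 21 and lower for none. Somatostatin, the peptide of a class of inhibitory neurons, was encoded by Sst at 11.39, 10.98 and 11.42 on the neuron arrays and 4.27, 4.23 and 4.24 on the microglia arrays, at least 98.6-fold higher. The granule proteins Scg5 and Scg3 and the secreted neurexophilin Nxph1 were at least 76.8-fold, at least 36.1-fold and at least 19.7-fold higher. Sst lay at 4.31 on the astrocyte arrays of the same chip, where Scg5 was at 9.77 and Scg3 at 9.08.

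RNA-binding and splicing regulators moved in both directions, with 11 of 29 higher and 8 lower. Rbfox1 was at 12.32 ± 0.31 on the neuron arrays and 4.60 ± 0.51 on the microglia arrays (SD, n = 3 each). Elavl3 and Elavl2, neuronal Hu proteins, were at least 94.5-fold and at least 56.1-fold higher, and Rbfox3, which encodes the antigen NeuN, was at least 65.8-fold higher. The widely expressed Hu protein gene Elavl1 was lower, at 6.91, 7.92 and 6.94 on the neuron arrays and 10.09, 10.08 and 10.24 on the microglia arrays. Ptbp1, which represses neuronal exons in other cells, was at 9.12, 9.09 and 9.01 on the neuron arrays and 11.22, 11.11 and 11.16 on the microglia arrays, 4.25-fold lower, and 7 of its 9 other probes were called the same way. The related genes Ptbp3 and Mbnl1 were 5.93-fold and 4.50-fold lower, Mbnl1 with a difference of -0.71 and no call when all its probes were averaged.

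Related genes were set side by side in 18 pairs, of which 12 had both genes tested. In each pair 1 member was listed as brain-enriched and the other as widespread or leukocyte, and these roles were not tested. Tmsb10, listed as brain-enriched, was at 12.60 in CD8 T cells, 12.17 in BM-DC and 11.78 in MF against 12.79 in neurons. Ptbp2, listed likewise, was at 6.55 in CD8 T cells against 5.26 in neurons. In 5 pairs the brain-enriched gene was higher and the other lower. These were Elavl4 and Elavl1, the vesicle SNAREs Vamp2 (19.5-fold higher) and Vamp8 (at least 16.2-fold lower), the inhibitory G protein subunits Gnao1 (30.1-fold higher) and Gnai2 (2.92-fold lower), the Rac GTPases Rac3 (at least 5.78-fold higher) and Rac2 (at least 12.4-fold lower), and the intermediate filaments Ina (10.8-fold higher) and Vim (45.6-fold lower). Both genes were higher for the beta thymosins Tmsb10 and Tmsb4x, with differences of 3.92 and 1.36 (the second 0.84 and not called under median scaling), and for the stathmins Stmn2 and Stmn1, Stmn1 being 10.9-fold higher. The aldolases Aldoc and Aldoa were both lower, by 3.31-fold and 10.2-fold, Aldoc not called with the mean of its probes (-0.95). Ldha and Ptbp1 were lower while Ldhb and Ptbp2 were not called. Kif5c and Napb were higher while Napa and Kif5b were not called, the last being undetected in both groups. Of 2 other Napa probes, 1 was called lower in neurons. Unpaired by the filter, Snap23, Prkcd and the tubulin Tubb6 were lower, by 13.5-fold, 7.69-fold and 44.4-fold, Eno2 was 2.27-fold higher (0.93 and not called under median scaling) and the dynamin Dnm1 was not called, at 4.26, 4.48 and 4.34 on the neuron arrays and 4.65, 4.38 and 4.71 on the microglia arrays. Each gene was tested against 0 and the difference between family members was not tested.

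**Figure D3:**
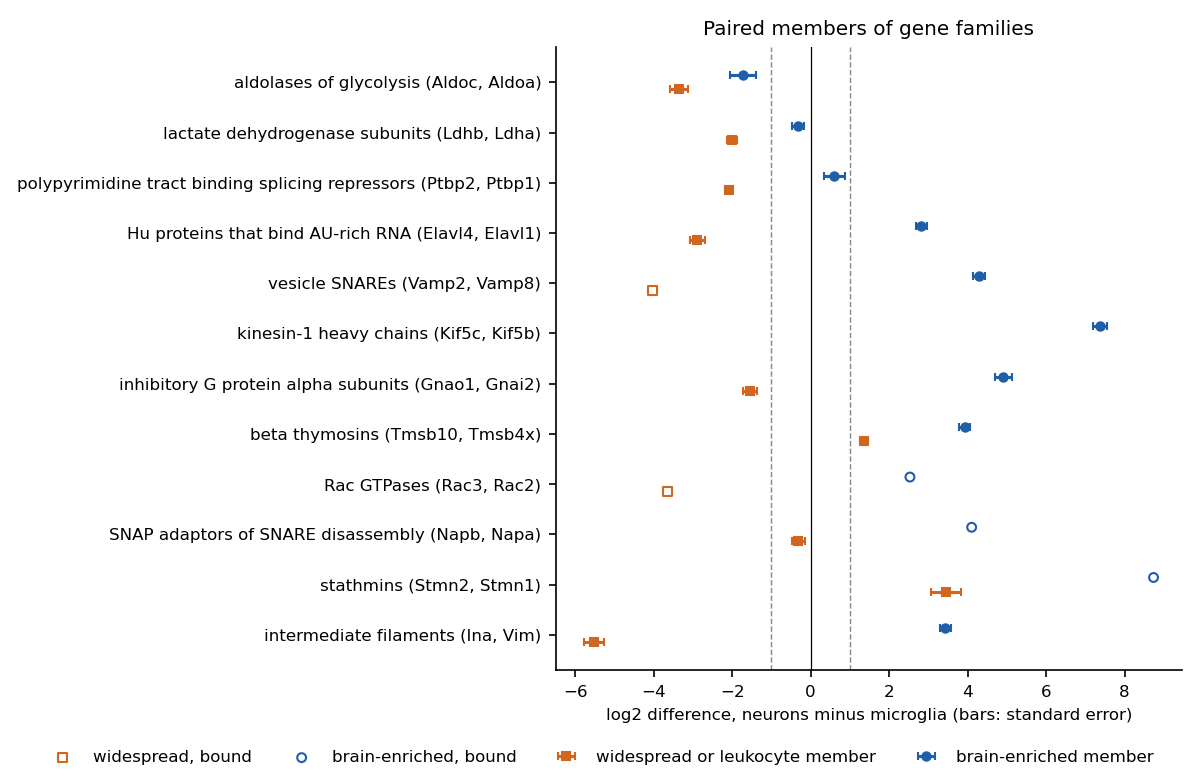
Log2 differences of neurons minus microglia on the horizontal axis for 12 gene families. Circles mark the member listed as brain-enriched and squares the member listed as widespread or leukocyte. Bars are standard errors of the fit, open markers without bars are lower bounds of the size for genes undetected in the lower group, dashed lines mark the threshold of 1 in either direction, and Kif5b, undetected in both groups, is not drawn. In 5 families the members lie past the dashed lines on opposite sides.

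Glial genes were also higher on the neuron arrays. Of 18 astrocyte and radial glia genes, 13 were higher and 1 lower. The glutamate transporter Slc1a3 was at 10.47, 12.05 and 10.34 on the neuron arrays and 4.22, 4.35 and 4.23 on the microglia arrays, at least 79.3-fold higher, against 13.22 on the astrocyte arrays of the same chip. Sox9, a transcription factor of glial cells and progenitors, was at 9.01, 9.82 and 8.45 on the neuron arrays and 4.32, 4.23 and 4.25 on the microglia arrays, and Gja1, which encodes a gap junction channel, at 8.33, 9.54 and 8.02 on the neuron arrays and 4.19, 4.32 and 4.32 on the microglia arrays. Neuron array 2 was the highest of the 3 neuron arrays for 15 of the 18 genes. It was also the highest for 17 of 22 glycolysis and lactate genes and for 11 of 30 neuronal cytoskeleton genes. The share over all genes was not computed. Ptprz1, a phosphatase of radial glia and oligodendrocyte precursors, was at least 15.5-fold higher, and had means of 8.60 on the neuron and 8.74 on the astrocyte arrays. Tnc, Ttyh1 and Id3 were at least 9.83-fold, at least 8.45-fold and at least 2.66-fold higher. Low levels were called for the mature astrocyte markers Gfap (4.95, 6.76 and 5.86 on the neuron arrays) and Aqp4 (4.85, 6.60 and 5.09), which stood at 11.52 and 11.45 on the astrocyte arrays, and for Mt3, Nes, Hopx and Fabp7 (differences of 1.52, 1.22, 1.14 and 1.04). Aldh1l1, Slc1a2, Glul and Ntsr2 were not called, with differences of -0.34, -0.38, 0.08 and 0.12. Vim was the lower member. Summed over the 18 genes, normalized intensity was 3191 to 7774 on the neuron arrays, 7057 to 8120 on the microglia arrays, where Vim is part of the sum, and 41064 to 43531 on the astrocyte arrays. With neuron array 2 left out, 10 of the 18 were called, as Aqp4 (0.60), Fabp7 (0.69), Hopx (0.73) and Nes (0.99) fell short of the threshold. Fabp7 also fell short without microglia array 3, at 0.999. With the deposited normalized values 7 of the 18 were called. The part of glial cells in the neuron results was not tested.

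In the oligodendrocyte lineage list, 2 of 8 genes were higher. Olig1, a transcription factor of the lineage, was at 10.95, 12.68 and 9.61 on the neuron arrays and 4.19, 4.22 and 4.31 on the microglia arrays, at least 86.6-fold higher, and again highest on neuron array 2. Mbp, a myelin protein gene, was at 6.39, 6.58 and 6.01 on the neuron arrays and 4.40, 4.59 and 4.51 on the microglia arrays, at least 3.22-fold higher, and not called with the deposited normalized values (0.72). Cnp, at a difference just short of the threshold that passed it in 4 of the 6 fits that left out 1 array (differences down to -1.16), and Pdgfra, Cspg4, Nkx2-2, Mag and Bcas1 (-0.12, -0.24, 0.26, -0.25 and -0.04) were not called. The summed intensity of the list was 976 to 6771 on the neuron arrays and 198 to 216 on the microglia arrays. Macrophage RNA was scarce in the neurons, with a macrophage lineage sum of 1387 to 1699 against 51567 to 52821 on the microglia arrays and 32341 to 45084 on the astrocyte arrays. Endothelial and mural genes were higher for 3 of 14 and lower for 3. The smooth muscle actin gene Acta2 was at 9.84, 11.03 and 9.25 on the neuron arrays and 4.89, 5.11 and 5.11 on the microglia arrays. Slco1c1, a thyroid hormone transporter, was at least 3.39-fold higher, but not called with the deposited normalized values (0.90). Esam was at the threshold with a difference of 1.00. It fell short under several alternatives, such as without neuron array 2 (0.91) or microglia array 3 (0.995), or with the deposited values (0.37). Flt1, Ly6c1 and Anpep were lower, Ly6c1 by at least 4.16-fold and Anpep by at least 9.68-fold. With the deposited values Ly6c1 fell just short of the threshold (-0.999). The defining endothelial markers Pecam1 (4.28, 4.56 and 4.25 on the neuron arrays), Kdr (4.73, 4.29 and 4.48) and Cdh5 (5.14, 4.39 and 4.51) lay near the level of undetected probes, and Ocln, Pdgfrb, Kcnj8 and Abcc9 were not called (0.15, 0.12, 0.03 and -0.01).

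Fibroblast and meningeal genes were higher for 4 of 13. These were the growth factor binding protein Igfbp2 (at least 10.6-fold), fibronectin Fn1 (at least 3.80-fold), Fbln1 (3.92-fold) and Igf2 (2.19-fold). Igf2 was not called under several alternatives, such as without neuron array 1 (a difference of 0.93), with an offset of 50 (0.58) or with the deposited normalized values (0.40). The collagens Col1a1, Col1a2 and Col6a1 were detected on no array of either group, and Fbln2, Slc6a13 and Ogn likewise. Dcn and Thbs1 were not called, at 0.29 and 0.33. None of the 5 erythroid genes was called by limma, although 8238 of all 12814 genes had an unadjusted p below 0.05. Hba-a1, Alas2, Epor, Klf1 and Slc4a1 differed by 0.43, -0.02, 0.05, -0.07 and -0.05.

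On the side of the cells labelled microglia, 24 of 30 macrophage lineage genes were lower in neurons and none higher, with a median difference of -3.29. Lyz1, Laptm5, Fcer1g and Lyz2 led, as given above. Adgre1, Csf1r, Spi1 and Ptprc, which encode F4/80, the CSF1 receptor, PU.1 and CD45, are defining markers of the lineage, and were at least 67.0-fold, at least 21.9-fold, at least 4.15-fold and at least 3.00-fold lower in neurons. Csf1r was at 4.56, 4.56 and 4.39 on the neuron arrays and 8.69, 9.33 and 9.10 on the microglia arrays and Spi1 at 4.29, 4.29 and 4.25 on the neuron arrays and 6.56, 6.70 and 6.68 on the microglia arrays. Itgam, which encodes CD11b, was not called, at 4.20, 4.39 and 4.15 on the neuron arrays and 5.36, 5.49 and 4.85 on the microglia arrays, but passed the threshold without neuron array 2 (-1.06) or microglia array 3 (-1.18). Spi1 was not called with the deposited normalized values (-0.99). Ptprc was not called under 5 alternatives, with adjusted p (limma, Benjamini-Hochberg) of 0.0583 under median scaling, 0.147 with an offset of 50, 0.200 without background correction and 0.241 with the deposited values, and with a difference just short of 2-fold with the mean of all probes.

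The microglia core list, made of genes listed as microglia markers, moved otherwise. It did not set the microglia arrays apart from the bone marrow groups. Its summed normalized intensity was 3326 to 3625 on the microglia arrays, 11454 to 12470 in MF and 6342 to 7137 in BM-DC. The sum was 1565 to 1757 on the neuron arrays and 14332 to 18618 on the astrocyte arrays. Of 19 tested members, 3 were lower in neurons and 1 higher. Trem2, a lipid-sensing receptor of myeloid cells, was at 4.22, 4.43 and 4.33 on the neuron arrays and 10.48, 10.42 and 10.27 on the microglia arrays, at least 55.5-fold lower, Selplg, the P-selectin ligand, at least 12.8-fold lower, and the phagocytic receptor Mertk 4.12-fold lower. Sparc was at 5.83, 7.14 and 6.35 on the neuron arrays and 4.23, 4.26 and 4.57 on the microglia arrays, at least 3.48-fold higher. Tmem119 (4.56, 4.43 and 4.50 on the microglia arrays), P2ry12 (4.18, 4.32 and 4.34), Fcrls (4.20, 4.22 and 4.39), Cx3cr1 (4.39, 4.43 and 4.62), Olfml3, P2ry13, C1qa, Siglech and Csf3r were detected on no microglia array. Of the 19 genes, 8 were detected on all microglia arrays and 10 on none. The astrocyte arrays, from another chip, held Fcrls at 12.34, Cx3cr1 at 9.44 and Olfml3 at 8.11, and P2ry12 at 5.02 and Tmem119 at 6.07, while no astrocyte array detected Siglech. Sall1, Tgfbr1, Bin1 and Golm1 were detected on all 6 arrays with differences of -0.42, -0.21, -0.21 and -0.44, and Lpcat2 (-0.73) and Gpr34 (-0.38) were not called, although Lpcat2 was called without neuron array 1 (-1.08). With the deposited normalized values 2 of the 19 were called.

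**Figure D4:**
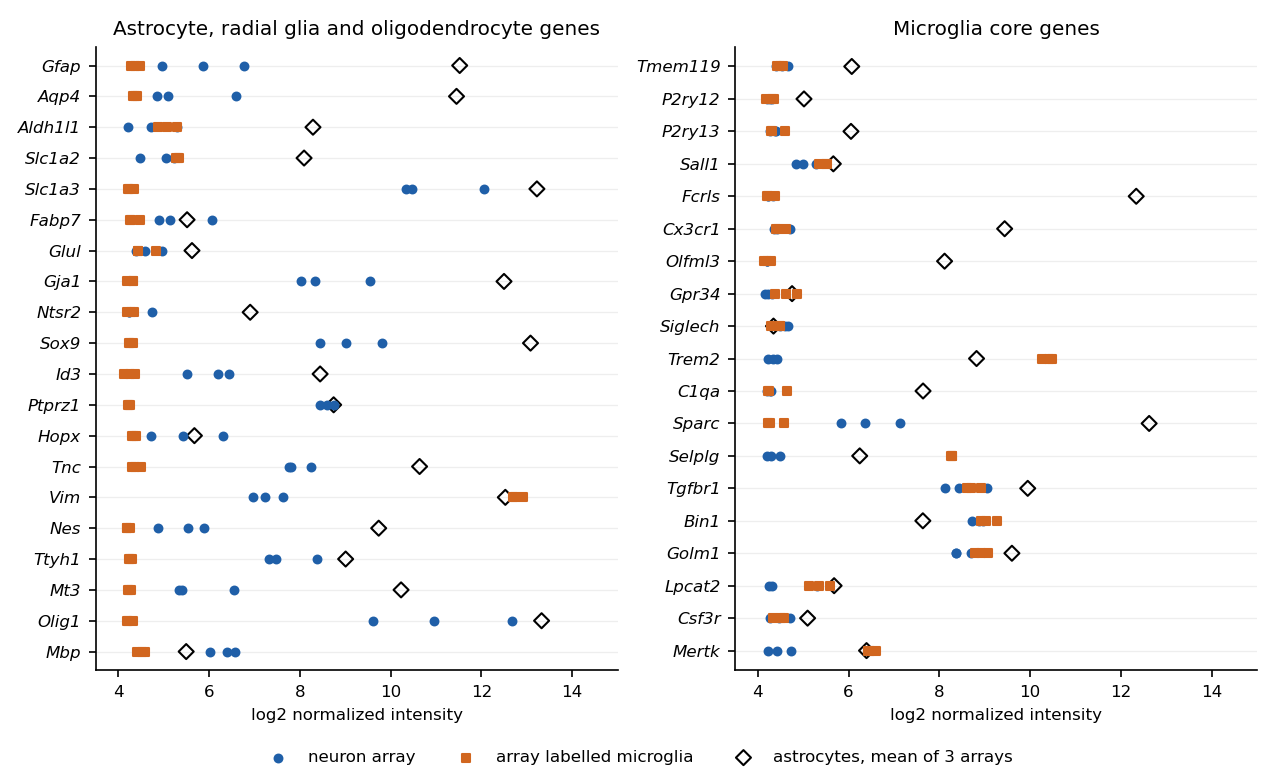
Levels of the tested astrocyte and radial glia genes with the called oligodendrocyte genes Olig1 and Mbp (left) and of the 19 microglia core genes (right), as log2 normalized intensity on the horizontal axis, with circles for neuron arrays, squares for arrays labelled microglia and open diamonds for the mean of 3 astrocyte arrays. Slc1a3, Sox9, Gja1 and Olig1 lie well above the microglia arrays on each neuron array, and the microglia arrays stand clear of the neurons for Trem2, Selplg and Mertk but not for P2ry12, Fcrls or Cx3cr1.

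Fc, complement and phagocytic receptor genes were lower in neurons for 18 of 34 and higher for 1. The mannose receptor Mrc1 was at 4.21, 4.19 and 4.27 on the neuron arrays and 11.44, 11.42 and 11.34 on the microglia arrays. The inhibitory receptor Lilrb4a was at least 87.8-fold lower and the activating Fc receptor Fcgr4 at least 66.6-fold lower. Axl, a receptor for apoptotic cells related to Mertk, was higher instead. Its levels were 6.44, 7.10 and 6.17 on the neuron arrays and 4.15, 4.40 and 4.36 on the microglia arrays. With the deposited normalized values Axl was not called (0.97). Lysosome and cathepsin genes were lower for 24 of 33 and higher for none. After Ctsk came the glucuronidase Gusb at 4.49, 5.27 and 4.51 on the neuron arrays and 11.75, 11.52 and 11.48 on the microglia arrays, cathepsin Z (Ctsz, 77.6-fold lower) and cathepsin C (Ctsc, 35.0-fold lower). The neurons held detectable RNA for much of this list, as 18 of its 33 genes were detected on all neuron arrays, unlike the pattern recognition list with 2 of 37.

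Pattern recognition and inflammasome genes were lower for 26 of 37 and higher for none. Casp1, the protease of the inflammasome, was at 4.47, 4.35 and 4.55 on the neuron arrays and 11.15, 11.15 and 11.11 on the microglia arrays, at least 93.5-fold lower (adjusted p = 4.04e-19). Tlr2, a receptor for bacterial lipoproteins, and the endotoxin co-receptor Cd14 were at least 67.8-fold and at least 28.3-fold lower, and Unc93b1, the chaperone of nucleic acid sensing receptors, 32.5-fold. Chemokine, cytokine and receptor genes were lower for 20 of 39 and higher for 2. Besides Tnfaip2 and Ccl4, the chemokines Ccl5 and Cxcl9 were at 10.79, 11.49 and 11.05 and 10.84, 11.01 and 10.89 on the microglia arrays and at least 91.8-fold and at least 79.9-fold lower in neurons. The higher genes were Tgfb2 and Cx3cl1, the neuronal ligand of the receptor Cx3cr1. Cx3cl1 was at 6.45, 7.10 and 6.23 on the neuron arrays and 4.36, 4.21 and 4.35 on the microglia arrays. With the deposited normalized values it was not called (0.96). Tgfb2 was at 5.26, 5.29 and 5.92 on the neuron arrays and 4.37, 4.27 and 4.32 on the microglia arrays. It was not called under several alternatives, such as without neuron array 3 (0.96), with an offset of 50 (0.56) or with the deposited values (0.41). Cx3cr1 itself was detected on no microglia array.

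Interferon response genes were lower in neurons for 23 of 35 and higher for 1. Behind Gbp2, the antiviral membrane protein Ifitm3 was at 4.84, 6.25 and 5.46 on the neuron arrays and 12.18, 12.36 and 12.22 on the microglia arrays, the transcription factor Irf1 at 4.72, 5.87 and 5.68 on the neuron arrays and 11.42, 11.58 and 11.55 on the microglia arrays and Gbp3 at 4.60, 4.75 and 4.29 on the neuron arrays and 10.47, 10.90 and 10.48 on the microglia arrays. Every microglia array lay above every neuron array for these genes. The mitochondrial nucleotide kinase Cmpk2, known as interferon-induced in macrophages, was the exception at 7.10, 7.78 and 7.17 on the neuron arrays and 4.36, 4.23 and 4.28 on the microglia arrays, at least 6.53-fold higher in neurons.

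The interferon response element, searched as GAAA, any 2 bases and GAAA on both strands, was found in 19 of 35 promoters of this list (54.3%) against 1131 of all 32851 (3.44%), in 122 of 2723 promoters of genes called lower in neurons (4.48%) and in 63 of 2815 of genes called higher (2.24%). The promoters of Gbp2, which has the largest bound among the falls, and Isg15, a ubiquitin-like protein at 4.31, 4.37 and 4.45 on the neuron arrays and 8.20, 8.19 and 8.00 on the microglia arrays (chosen after its values were seen), are shown because they hold the element close to the start site. Capitals mark the matches, 1 on the strand opposite to the gene for Gbp2 (bases -59 to -50 from the start site) and 3 that overlap on the gene's own strand for Isg15 (bases -78 to -57). The windows are chr3:142620413-142620712 on the plus strand and chr4:156200769-156201068 on the minus strand of GRCm38.p6, from RefSeq.
Gbp2: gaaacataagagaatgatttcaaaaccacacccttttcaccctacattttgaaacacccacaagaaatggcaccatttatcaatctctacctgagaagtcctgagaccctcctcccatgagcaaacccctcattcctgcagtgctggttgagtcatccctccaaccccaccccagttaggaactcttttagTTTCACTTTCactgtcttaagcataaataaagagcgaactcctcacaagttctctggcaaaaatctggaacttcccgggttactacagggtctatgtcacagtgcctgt
Isg15: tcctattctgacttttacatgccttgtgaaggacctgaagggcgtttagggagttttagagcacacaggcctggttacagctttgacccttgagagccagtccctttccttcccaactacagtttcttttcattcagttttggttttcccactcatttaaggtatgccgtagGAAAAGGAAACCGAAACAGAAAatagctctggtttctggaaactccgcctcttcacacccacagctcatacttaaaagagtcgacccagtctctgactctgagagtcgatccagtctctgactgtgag

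MHC and antigen presentation genes were lower in neurons for 21 of 31 and higher for none. H2-D1, a class I heavy chain, was at 5.28, 5.28 and 5.76 on the neuron arrays and 11.95, 12.07 and 11.97 on the microglia arrays, and B2m, the light chain of class I molecules, at 6.43, 7.69 and 6.96 on the neuron arrays and 13.46, 13.62 and 13.38 on the microglia arrays. Both were detected on all neuron arrays, B2m highest on neuron array 2. H2-T23 and Cd74, the invariant chain of class II molecules, were at least 49.2-fold and at least 37.5-fold lower. Near-identical H2 and Gbp genes may share probes, which was not tested. Leukocyte signalling and adhesion genes were lower for 30 of 42 and higher for none, with a median difference of -4.11. Cyba, a subunit of the phagocyte oxidase, was at 4.63 ± 0.11 on the neuron arrays and 11.92 ± 0.08 on the microglia arrays (SD, n = 3 each). The exchange factor Vav1, which activates Rac in blood cells, was at 4.38, 4.35 and 4.41 on the neuron arrays and 11.20, 11.22 and 11.28 on the microglia arrays, a difference of -6.64 on the log2 scale with the neuron arrays raised to their lowest detected value. Plek and Nckap1l, which act on the actin skeleton of leukocytes, were at least 74.2-fold and at least 70.0-fold lower.

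A motif of the PU.1 type, GAGGAAGT on both strands, was found in 6 of 44 promoters of the leukocyte signalling list (13.6%), counting 2 overlapping promoters of Pik3cg, in 2 of 27 of the macrophage lineage list (7.41%), in 1 of 35 of the interferon response list (2.86%), in 126 of 2723 promoters of genes called lower in neurons (4.63%), in 65 of 2815 of genes called higher (2.31%) and in 1052 of all 32851 (3.20%). The Vav1 promoter, chr17:57278850-57279149 on the plus strand of GRCm38.p6, is shown because it holds the motif, in capitals, at bases -11 to -4 from the start site.
Vav1: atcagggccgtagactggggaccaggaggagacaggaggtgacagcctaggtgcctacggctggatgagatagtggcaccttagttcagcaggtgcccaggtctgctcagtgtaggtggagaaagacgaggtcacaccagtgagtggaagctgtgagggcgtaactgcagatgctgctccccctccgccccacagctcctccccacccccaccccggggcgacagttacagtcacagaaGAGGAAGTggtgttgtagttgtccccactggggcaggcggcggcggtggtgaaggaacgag

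Lipid handling and alternative activation genes were lower in neurons for 12 of 29 and higher for 2. Gpnmb was at 5.37, 4.87 and 6.13 on the neuron arrays and 13.75, 13.85 and 13.71 on the microglia arrays, and Alox5ap, which presents arachidonic acid for leukotriene synthesis, at 4.33, 4.50 and 4.32 on the neuron arrays and 11.97, 11.95 and 12.09 on the microglia arrays. Acod1, which makes itaconate in activated macrophages, was at least 53.8-fold lower. The higher genes were Scd1, a fatty acid desaturase, at 7.61, 8.71 and 7.63 on the neuron arrays and 4.22, 4.29 and 4.30 on the microglia arrays, and the mitochondrial arginase Arg2, at 7.03, 6.57 and 7.18 on the neuron arrays and 4.30, 4.16 and 4.26 on the microglia arrays. Cholesterol synthesis genes were lower for 7 of 18 and higher for none, led by Lss (5.27-fold), Ebp (3.56-fold), the regulator Srebf1 (3.15-fold) and Fdps (2.87-fold). With an offset of 50 in the background correction, 3 of the 18 were called.

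Glycolysis and lactate genes were lower in neurons for 13 of 22 and higher for 3. The myeloid hexokinase Hk3 was at 4.23, 4.24 and 4.25 on the neuron arrays and 11.27, 11.44 and 11.32 on the microglia arrays. The glucose transporter Slc2a6, the phosphofructokinase Pfkp and the aldolase Aldoa were 26.8-fold, 24.3-fold and 10.2-fold lower. Slc2a3, the glucose transporter of neurons, went the other way at 9.11, 9.38 and 9.14 on the neuron arrays and 4.28, 4.17 and 4.23 on the microglia arrays, at least 23.8-fold higher, and Pfkfb4 and Eno2 were 2.43-fold and 2.27-fold higher, Pfkfb4 not called with the deposited normalized values (0.98). Thus the glucose transporters Slc2a3 and Slc2a6 differed in opposite directions.

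Cell division and DNA replication genes were lower in neurons for 32 of 38, the largest share of falls among the lists other than the one picked on these samples. Cyclin D1 (Ccnd1) was at 6.25, 6.97 and 6.10 on the neuron arrays and 11.68, 11.63 and 11.60 on the microglia arrays, and 36.7-fold lower. The mitotic kinase Aurka was at 6.38, 6.54 and 5.95 on the neuron arrays and 10.26, 10.16 and 10.28 on the microglia arrays, the replication licensing factor Cdt1 at 6.62, 6.47 and 6.20 on the neuron arrays and 10.29, 10.29 and 10.27 on the microglia arrays, and the spindle checkpoint kinase Bub1b at 7.06, 7.05 and 6.68 on the neuron arrays and 10.70, 10.60 and 10.57 on the microglia arrays. Neuron levels stayed above the level of undetected probes for most of the list, with 30 of 38 genes detected on all neuron arrays, and neuron array 2 was the highest of the neuron arrays for 27 of the 38. The higher genes were the cell cycle inhibitor Cdkn1c, at 10.62, 9.91 and 10.51 on the neuron arrays and 5.31, 5.09 and 5.43 on the microglia arrays, and cyclin D2 (Ccnd2), at 9.87, 9.91 and 8.70 on the neuron arrays and 4.32, 4.38 and 4.25 on the microglia arrays.

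**Figure D5:**
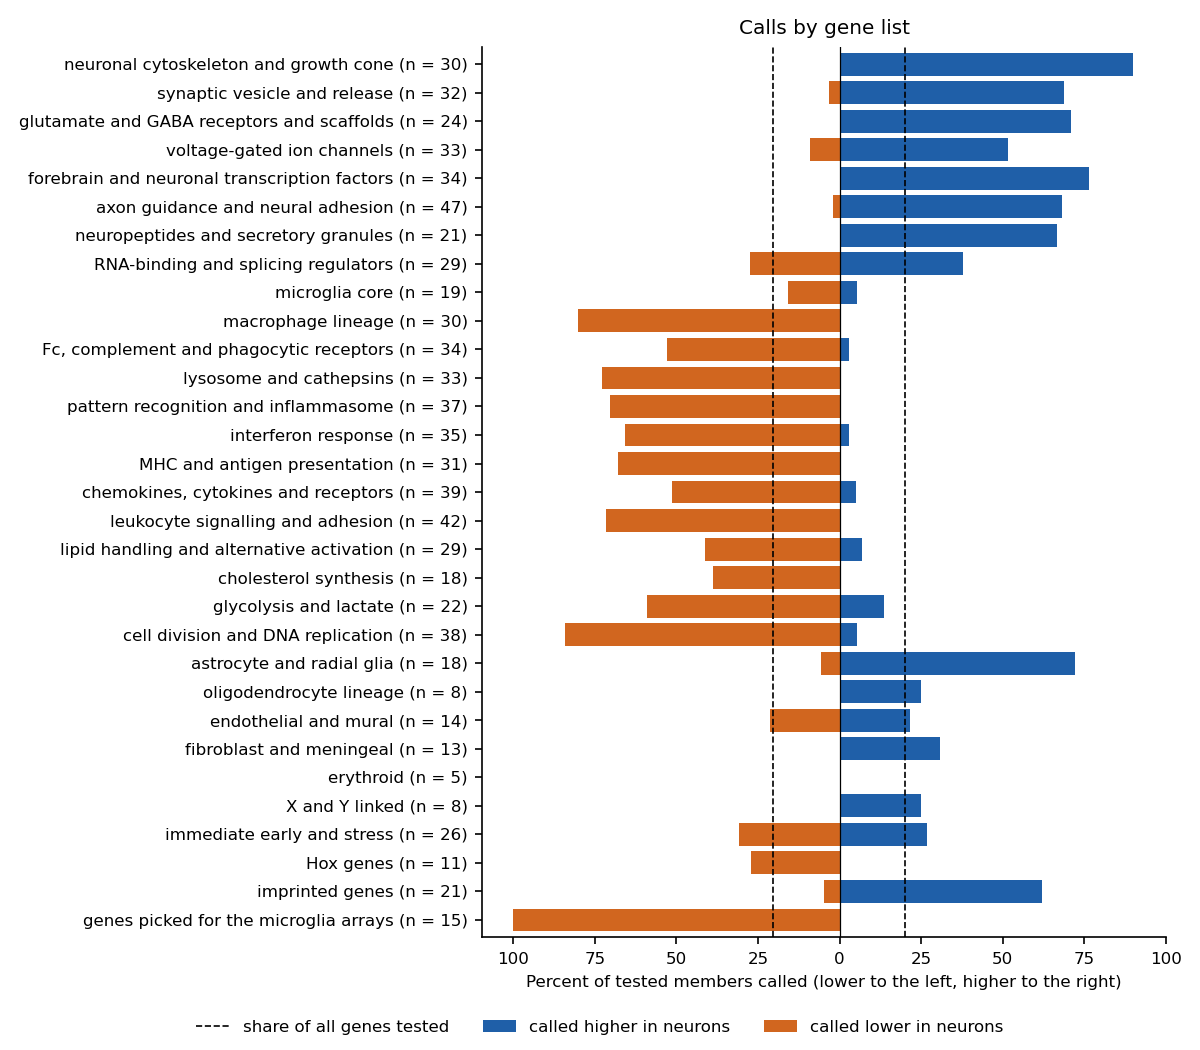
Percent of the tested members of each of 31 gene lists called higher (to the right) or lower (to the left) in neurons, with the number tested in brackets and dashed lines at the shares among all genes, 20.1% and 20.5%. The bars for the neuronal lists run to the right and those for the macrophage, lysosome, interferon and cell division lists to the left, while the microglia core bars stay inside the dashed lines.

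Immediate early and stress genes were higher for 7 of 26 and lower for 8. Chac1, an enzyme that breaks down glutathione and is induced by the integrated stress response, was at 11.74, 10.78 and 11.69 on the neuron arrays and 4.25, 4.39 and 4.24 on the microglia arrays, at least 109-fold higher (adjusted p = 7.15e-21). Its mean was 7.16 on the astrocyte arrays of the same chip. The early factors Egr1, Nr4a2 and Fosl2 were 6.70-fold, 5.56-fold and 5.17-fold higher, and Ier3, Junb and the haem oxygenase Hmox1 were 30.8-fold, 12.6-fold and 5.42-fold lower. Atf3 was lower too. Chac1 and Atf3 are both known targets of the integrated stress response, and they differed in opposite directions, with Atf3 at 4.31, 4.33 and 4.36 on the neuron arrays and 8.76, 8.95 and 8.80 on the microglia arrays.

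Imprinted genes, which are expressed from 1 parental allele, were higher in neurons for 13 of 21 and lower for 1. Snurf, whose transcript shares its start with Snrpn, was at 13.44, 13.58 and 13.36 on the neuron arrays and 4.27, 4.26 and 4.26 on the microglia arrays, and 2 of its 3 other probes were called the same way. Ndn, which encodes the neuronal growth suppressor necdin, was at 12.52, 12.16 and 12.31 on the neuron arrays and 4.56, 4.26 and 4.33 on the microglia arrays, at least 206-fold higher. Cdkn1c and Ppp1r9a, which encodes the actin-binding protein neurabin, were 33.6-fold and at least 30.9-fold higher. The lower gene was the scavenger of insulin-like growth factor 2, Igf2r, at 7.25, 7.04 and 7.02 on the neuron arrays and 9.22, 8.97 and 9.10 on the microglia arrays. The astrocyte arrays of the neurons' chip held Snurf at 11.95 and Ndn at 10.71, and detected 10 of the 13 higher genes on all 3 arrays.

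X-linked and Y-linked genes were examined because they report on the sex of the cells. Xist, the RNA of the inactive X chromosome, was at 8.62, 7.62 and 8.66 on the neuron arrays and 4.44, 4.32 and 4.30 on the microglia arrays, at least 12.6-fold higher (adjusted p = 0.00213). The Y-linked translation factor Eif2s3y was at 8.05, 8.03 and 8.15 on the neuron arrays and 4.20, 4.31 and 4.20 on the microglia arrays, at least 10.8-fold higher. Every neuron array thus held RNA of both genes and no microglia array detected either. Kdm5d, also Y-linked, was detected on all neuron arrays and no microglia array, with a difference of 0.90 that was not called. Uty, Kdm6a, Kdm5c, Eif2s3x and Ddx3x were not called, with differences of 0.16, 0.07, 0.75, -0.66 and -0.22. Kdm5c was detected on neuron array 1 alone, at 6.88, 4.21 and 4.23, and was called without neuron array 2 (1.20) or 3 (1.19). Of 3 other Xist probes, 1 was called the same way.

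Hox genes, which pattern the trunk and are used in blood-forming cells, were lower in neurons for 3 of 11 and higher for none. Hoxc6 was at 4.29, 4.29 and 4.23 on the neuron arrays and 8.35, 8.43 and 8.57 on the microglia arrays, at least 14.5-fold lower, Hoxa5 at least 7.13-fold lower and Hoxa7 at least 2.90-fold lower, the last not called with the deposited normalized values (-0.67). All 3 genes were detected on every microglia array and on no neuron array. The last list holds 15 genes picked earlier because they were high on these very microglia arrays, so its 15 falls are no independent evidence. Gbp2, Rhox5, Flt1 and Serpina3f led it, and Serpina3f, a serine protease inhibitor, was at 4.27, 4.21 and 4.22 on the neuron arrays and 11.30, 11.44 and 11.24 on the microglia arrays. Several of the genes named above were detected on no microglia array but were present in the bone marrow and T cell groups of the study. Some of these, Cmpk2, Axl and Rtl8a, were also detected on no array of the groups grown from embryonic stem cells. Cmpk2, Axl, Ccnd2 and Rtl8a, higher in neurons, were also detected on all arrays of the bone marrow groups MF and BM-DC (abbreviations the labels do not spell out), of the CD8 T cells and of the astrocytes.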

How the data were processed

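RNA of 27 samples was hybridised to Illumina mouse bead arrays of 1 colour, which hold 45281 probes. The deposited table held, per array, the mean bead intensity of each probe, not normalized between arrays, and a detection p-value, also made by the authors before deposit. The deposited series matrix held normalized intensity on a linear scale and served as an alternative. The scanner settings, software and genome build of the array are not given in the sources used here.

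Background correction from the detection p-values (offset 16) and quantile normalization used the neqc function (limma 3.58.1, R 4.3.3). The filter kept the 25001 probes detected (p under 0.05) on 3 or more of the 27 arrays. Of all probes, 34885 carried 1 gene symbol in the platform annotation, 18 several and 10378 none here. The brightest probe per symbol gave 12814 genes. Of 2499 called genes with other probes past the filter, 1326 had at least 1 called the same way. In 83 an other probe was called the opposite way. Called genes named above whose other probes were all not called include Kif1a, Lyz1, Flt1, Vim, Elavl1, Elavl4, Snap23 and Aldoc. A limma fit with 1 mean per group and 19 residual degrees of freedom gave each difference, and p-values were adjusted by the Benjamini-Hochberg method over all genes. They measure the spread between arrays, which may be technical. On simulated data with 200 changed genes among 12814, 196 were called in the right direction. The planted changes were 1.5, 2, 3 and 5 on the log2 scale, all past the threshold, with independent noise. The simulation therefore does not cover changes near the threshold or effects of the chip.

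Named genes are the 10 largest rises and falls among called genes detected in both groups with arrays that do not overlap. The 10 largest bounds in each direction are also named. From each list come up to 4 called members per direction, or 2 where none was called. All tested members of 7 marker lists and the paired family members are named too. Some of the defining markers of the cell types, the promoter matches and some members not called or not tested are named as well. Most other names are marked as picked with their values in view. Of 1015 entries in 31 lists, 796 were tested. The comparison and the lists were chosen with earlier results of these data known. Promoters are RefSeq windows of 300 bases on GRCm38.p6, and 10314 of the 12814 genes matched one. No set test was run.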

Additional observations from a re-analysis of the deposited data

How the results depend on the processing

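The counts of called genes (5192 in all, 2570 higher and 2622 lower in neurons) were computed again under 17 alternatives. Leaving out 1 of the 6 arrays at a time gave 5131 to 5230 in all, 2550 to 2578 higher and 2555 to 2652 lower. The count in all moved by more than 1.5 times without background correction (3332) and with the deposited normalized values (3299). The lower genes numbered 1618 and 1598 under these settings, and the higher genes 1701 with the deposited values. An offset of 50 gave 3948 and median scaling 4926, with 45.9% of calls higher against 49.5%. The median difference over all genes stayed within 0.1 of 0 in every setting. The cause of the lost calls was not tested.

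Of 527 list counts, 509 stayed within 1.5 times. Without background correction and with the deposited values respectively, the called members were 12 and 12 of the ion channel list (20 in the main setting), 8 and 8 of the neuropeptide list (14), 2 and 2 of the microglia core list (4), 14 and 13 of the pattern recognition list (26), 3 and 3 of the cholesterol list (7), 7 and 7 of the astrocyte list (14) and 1 and 1 of the oligodendrocyte list (2). The endothelial list fell from 6 to 3 with the deposited values. An offset of 50 gave 3 cholesterol and 7 astrocyte genes, and the mean of all probes gave 1 oligodendrocyte gene. Of 195 named genes that were called, 164 kept the call under all 17 alternatives, 31 lost it under at least 1, and none changed direction.

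The samples were treated as unpaired. Deviations of same-numbered neuron and microglia arrays from their group means correlated at -0.0014, -0.0011 and 0.0078 over genes. Such values cannot show whether the samples shared a litter or a preparation, which was not tested. With a replicate block in a fit of the 6 arrays, 5184 genes were called, against 5179 without the block. The chip as a random block gave 5189. Weak signals limit the rest, since the fold of a gene that few arrays of a group detected rests on levels near the background.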

Other observations

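Several of the differences above were shared by the microglia arrays and the ESdM groups (values are means of log2 levels, and these genes were chosen after their values were seen). Rtl8a, a gene derived from a retrotransposon, was at 13.40 in neurons, 13.12 in astrocytes, 11.46 in MF, 10.28 in BM-DC and 11.05 in CD8 T cells, but at 4.36 on the microglia arrays and 4.30 and 4.29 in ESdM 20 and ESdM 22, the groups grown from embryonic stem cells. Cmpk2 was at 7.35 in neurons, 7.28 in astrocytes, 7.85 in MF, 6.27 in BM-DC and 6.72 in CD8 T cells, and was detected on no microglia, ESdM 20 or ESdM 22 array. Axl (9.33 in MF, 10.34 in BM-DC) and Scd1 (8.60 in MF, 7.98 in BM-DC) were likewise detected on all arrays of those groups and on no microglia or ESdM array.

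In the other direction, Rhox5 was at 13.12 on the microglia arrays, 13.14 in ESdM 20 and 13.08 in ESdM 22, and between 4.29 and 4.42 in the other 5 groups, where 1 neuron and 1 astrocyte array detected it. Hoxc6 was at 8.45, 8.35 and 8.10 in the same 3 groups and was detected on no array of the rest. Xist was detected on no microglia or ESdM array and was at 10.71 in MF and 9.39 in BM-DC. The microglia and ESdM arrays shared chips, and no other group was on them. Gbp2 and Serpina3f did not follow this division, since Gbp2 was at 13.58 on the microglia arrays against 5.11 and 4.63 in ESdM 20 and ESdM 22, and Serpina3f at 11.33 against 4.41 and 4.23.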
